A study of Rattus norvegicus with 89 samples.

Results

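Kidney RNA of 5 rats given doxorubicin daily for 5 days was compared with that of 6 rats given it for 1 day, to describe what changed as dosing was repeated. The sample titles chose these 11 arrays out of 89 in the series, which also holds other nephrotoxicants, saline and untreated rats. All were Sprague-Dawley Crl:CD(SD) rats, aged 7 to 8 weeks when the experiment began, with 3 males and 3 females at day 1 and 2 males and 3 females at day 5. Saline rats of the same days (7 at day 1 with 3 males and 4 females, 5 at day 5 with 3 males and 2 females) were used to see what the day alone did. Each rat gave 1 array, made from homogenized apical pieces of both kidneys. Doses are not in the labels. A gene is given here by its scaled signal, a brightness that has no unit, and its change by the difference of log2(signal + 16) between days, with sex as a term in limma and p-values adjusted over 11420 genes.

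Doxorubicin is an anthracycline that inserts into DNA and traps topoisomerase II on it, which breaks the DNA strands. Cells answer such breaks through p53, which switches on Cdkn1a, Mdm2, Ccng1 and other targets. Dividing cells, among them the precursors of red and white blood cells in the bone marrow, are known to be sensitive to the drug, and in the rat kidney it is known for injury to podocytes, the cells of the glomerular filter. A piece of whole kidney also carries blood in its vessels, resident immune cells and connective tissue. In such bulk RNA, fewer cells of a type and less RNA per cell cannot be told apart.

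Before scaling, the trimmed mean signal lay between 130.6 and 187 on the day-1 doxorubicin arrays and between 120.97 and 196 on those of day 5, so brightness overlapped between the days. The log2 ratio of 3' to 5' GAPDH control probe sets, a sign of RNA quality, lay between 0.20 and 0.59 on the early arrays and between 0.26 and 0.76 on the late ones. The saline rat 1F106 of day 5 stood apart with a ratio of 1.58 and the lowest median rank correlation to the other arrays, 0.935. Kidney markers were high in each doxorubicin rat: Slc34a1, the phosphate carrier of the proximal tubule, at 4665 to 6565 and Umod, the uromodulin of the loop of Henle, at 5647 to 7292. None of the sex labels was contradicted by 2 Y-linked genes (0 arrays).

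Of the 11420 genes, 10 passed an adjusted p under 0.05 (0.0876%), with 2 higher (0.0175%) and 8 lower (0.0701%) at day 5. The falls were led by transcripts of red blood cells, Hbb, Hba-a3 and Alas2, and went on with genes of immune cells, Ighvl1, Alox15, Ccl6 and Fgd2, and the interferon-induced Bst2. The rises were Ccng1, a p53 target, and Atp6v1c1, a subunit of the proton pump of lysosomes. In each of these 10 genes the day-5 rats lay wholly outside the range of the day-1 rats, and the difference had the same sign in males and females. Over all genes, the day-5 group lay wholly below day 1 in 39 (0.342%) and wholly above it in 14 (0.123%). At an unadjusted p under 0.05 there were 591 genes (5.18%), 168 higher (1.47%) and 423 lower (3.7%), while 5984 (52.4%) had a difference below 0 and the median over all genes was -0.0069. In saline, 0 genes passed in limma between the same days, with 742 (6.5%) at an unadjusted p under 0.05, 365 higher (3.2%) and 377 lower (3.3%).

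**Figure D1:**
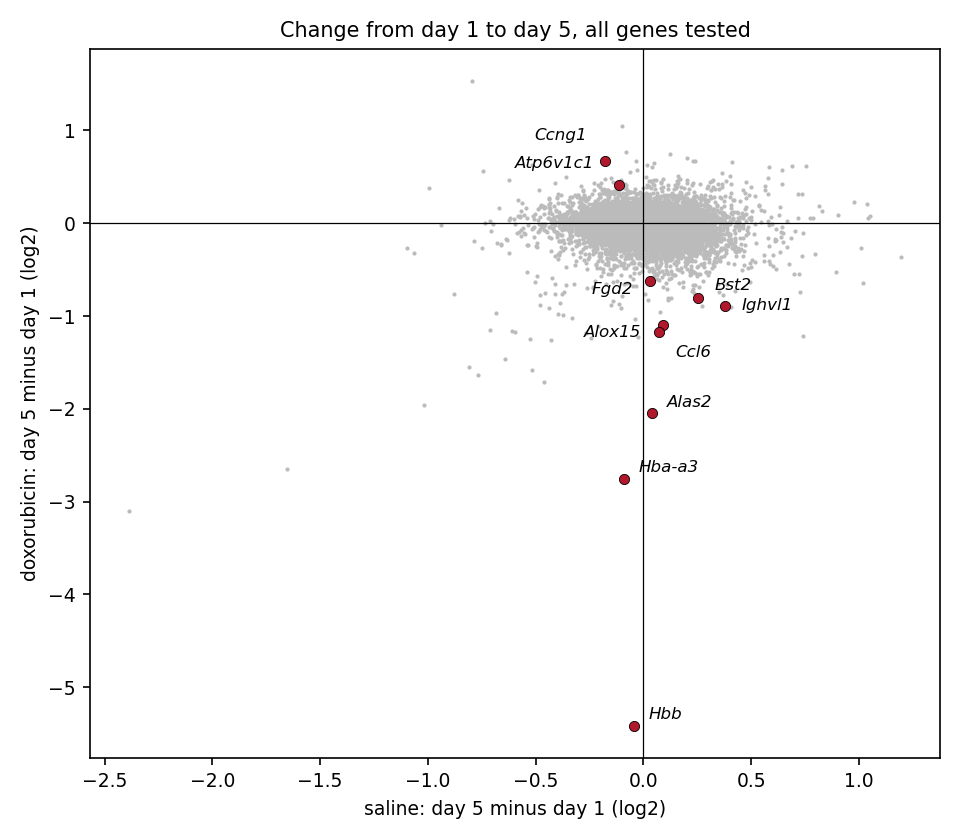
Change from day 1 to day 5 of the 11420 genes, in saline (horizontal axis, log2) and in doxorubicin (vertical axis, log2). Each point is a gene, and the 10 red points are the genes that passed in doxorubicin, of which Hbb lies lowest at -5.41 with a saline difference of -0.05.

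Hbb encodes the beta chain of hemoglobin (chromosome 1, 167662310 to 167663721 on the GRCr8 assembly). The day-1 doxorubicin rats had a lowest signal of 2663, a median of 3728 and a highest of 4699. At day 5 the signals were 74.5, 73.05, 70.3, 58.9 and 64.8. The 5 late rats thus lay close together and far below each early one. The mean went from 3666 ± 788 (SD, n = 6) to 68.3 ± 6.43 (SD, n = 5), and Hbb fell by 5.41 on the log2 scale (SE 0.12, adjusted p = 3.58e-20), a 42.6-fold difference. Saline rats lay between 4251 and 6233 at both days. The lowest Hbb signal on the 84 other arrays of the series was 2149, so 0 of them reached down to the day-5 doxorubicin rats. Its single probe set is of the type whose probes can also bind related transcripts, so the globin gene copies behind it are not separated.

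Hba-a3, an alpha globin gene (chromosome 10, 15816099 to 15816943), showed the same direction at a lower signal. Its day-1 signals had a lowest value of 182.3, a median of 277 and a highest of 691, and at day 5 the rats had 36.8, 12.1, 34.3, 36.1 and 46.9. The groups did not overlap, and Hba-a3 fell by 2.75 on the log2 scale (SE 0.24, adjusted p = 2.86e-07), which is 6.74-fold. The size depends on the pseudocount, since the day-5 signals lay near the limit and 1 of them under it: Hba-a3 fell by 1.95 with a pseudocount of 64 and fell by 3.14 with 4. The 84 other arrays had 89.7 or more.

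Alas2 makes the first enzyme of heme synthesis in red cell precursors (chromosome X, 22890650 to 22914046). It had a lowest signal of 57.4, a median of 80.9 and a highest of 144.6 at day 1, against 6.19, 2.57, 10.6, 14.9 and 13.2 at day 5. All 5 late signals lay under 33.1, the 40th percentile of all values and the level taken here as the limit of measurement. Its fall (adjusted p = 2.86e-07, means 93.6 and 9.48) was therefore at least 2.67-fold. The stretch before its start site, shown because this is where factors of red cell development act, holds 1 match of AGATAA, a form of the site bound by GATA factors, at 136 bases before the start of the RefSeq transcript, which lies inside the span of the gene given above (GRCr8, chrX:22895250-22895379, + strand, motif in capitals).
Alas2: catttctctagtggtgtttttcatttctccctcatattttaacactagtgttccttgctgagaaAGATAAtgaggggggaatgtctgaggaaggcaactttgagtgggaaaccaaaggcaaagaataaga
These letters, sought on both strands, occur in the 250 bases before the start of 5.69% of 9507 tested genes that have a promoter in the RefSeq table. Among 3 red cell genes they occur in 1, which is Alas2 itself, so this count adds nothing to the match shown.

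The red cell list held 6 measured genes of 16, and 6 of 6 were lower at day 5, with a median of -1.11 against 0.07 in saline and -0.0069 over all genes. Only Hbb, Hba-a3 and Alas2 passed among them. Slc4a1, the anion exchanger of red cells that kidney intercalated cells also make, had means of 936 ± 148.5 (SD, n = 6) and 872 ± 198 (SD, n = 5), a difference of -0.15. Slc25a37, a mitochondrial iron carrier made in many cells, differed by -0.02, and Ahsp, which holds free alpha globin, by -0.18 at means of 11.2 and 8.06, under the limit of measurement. The list median moved to -0.18 with no filter on dim genes and to -2.04 with the stricter filter at the 60th percentile. Without the day-5 males 6M49 and 6M50 it was -1.22 with 5 of 6 lower.

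**Figure D2:**
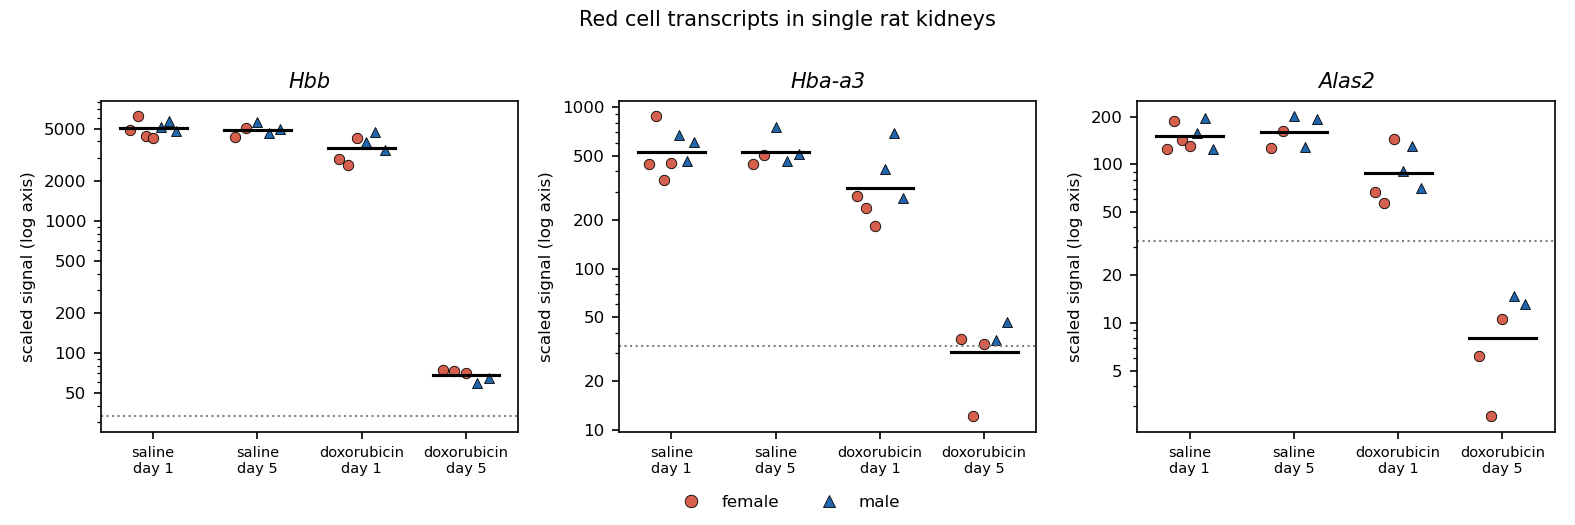
Scaled signal (log axis) of Hbb, Hba-a3 and Alas2 in each of the 23 rats, with females as circles, males as triangles, the geometric mean of each group as a bar and the measurement limit of 33.1 as a dotted line. The 5 rats of doxorubicin day 5 lie below each other rat in all 3 panels.

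Immune genes made up most of the other falls. Ighvl1, named in the array annotation as an immunoglobulin heavy chain variable gene (chromosome 6, 140501101 to 140501683), had a lowest signal of 35.9, a median of 56.9 and a highest of 66.8 at day 1. At day 5 it was 25.1, 28.2, 24.4, 11.8 and 19.1, each under the limit, so it fell at least 1.55-fold (adjusted p = 1.76e-04, means 52.8 and 21.7). In saline the gene stood higher at day 5 by 0.38, which did not pass (adjusted p = 0.702).

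Ccl6 encodes a chemokine of myeloid cells. Its day-1 signals had a lowest value of 132.7, a median of 203 and a highest of 223, and the day-5 rats had 42.5, 91.99, 105.6, 113.6 and 38.6. Ccl6 fell by 1.18 on the log2 scale (SE 0.23, adjusted p = 0.0442), and 4 of the 84 other arrays reached the highest of the day-5 values or less.

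Alox15, a lipoxygenase of eosinophils and macrophages, and Fgd2, an exchange factor for the GTPase Cdc42 in antigen-presenting cells, were near the limit already at day 1. Alox15 ran from 23.6 to 61.2 at day 1 and stood at 18.3, 9.002, 3.51, 6.17 and 4.58 at day 5 (adjusted p = 0.0109). Fgd2 ran from 32.03 to 44.1 at day 1 and stood at 19.8, 20.1, 17.2, 14.8 and 17.6 at day 5 (adjusted p = 0.0493). Every day-5 value of both lay under the limit, so their falls were at least 1.03-fold and 1.08-fold. A second probe set of Fgd2, dimmer on average, did not go the same way, with a mean difference of 0.24.

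Bst2 (chromosome 16, 18250593 to 18254967) is tetherin, a membrane protein induced by interferon that holds budding viruses at the cell surface. Its lowest, median and highest signals were 254, 297 and 344 at day 1, and the day-5 rats had 184, 206.6, 203.9, 121.2 and 132.95. The 2 males were the lowest of the late group. Bst2 fell by 0.81 on the log2 scale (SE 0.14, adjusted p = 0.0109), or 1.75-fold. Its promoter is shown because 2 overlapping copies of the core of the interferon-stimulated response element, written here as GAAA and GAAA with any 2 bases between them, lie in it, the nearer 125 bases before the start (GRCr8, chr16:18255028-18255147, - strand, motif in capitals).
Bst2: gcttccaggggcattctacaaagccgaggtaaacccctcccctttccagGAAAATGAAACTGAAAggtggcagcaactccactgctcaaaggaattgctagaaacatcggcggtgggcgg
The same pattern was found on either strand in the promoters of 10 of 13 tested interferon-response genes with a promoter in the table, against 250 of the 9507 promoters of tested genes (2.63%) and 3.29% of all 27457 promoters. Bst2 is not on the interferon list and so not among these 13.

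How firmly these calls stand differed between genes. When each of the 23 rats was left out in turn, Hbb, Hba-a3, Alas2, Ighvl1 and Ccng1 passed in 23 of 23 fits. Bst2 passed in 21 and was lost without 6M49 (adjusted p = 0.0701) or 6M50 (adjusted p = 0.0689). Alox15 passed in 20 and was lost without 6F151 (adjusted p = 0.0524), 6M49 (adjusted p = 0.0586) or 6M50 (adjusted p = 0.0770). Ccl6 passed in 10, Atp6v1c1 in 6 and Fgd2 in 2 of the 23, so these 3 lie at the edge of the threshold.

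The interferon list as a whole was lower at day 5, with 18 of 18 measured genes below 0 (52.4% over all genes), a median of -0.36 and a saline median of 0.07. Bst2 is not a member of this list. None of the 18 passed, and 6 had an unadjusted p under 0.05, as did 3.7% of all genes in this direction. Ifi27 had the smallest p, with means of 1187 and 815 and a difference of -0.61 (SE 0.19, adjusted p = 0.556). Irf7, the transcription factor that amplifies interferon signalling, had means of 418 and 300.3 (-0.51), and Rsad2, which blocks viral replication, 319 and 261 (-0.49). The list score of a rat, its mean log2 value relative to saline rats of the same sex, split the late group. Female 6F150 had 0.71, above each day-1 rat, and the other day-5 rats had -0.31, -0.45, -0.15 and -0.25. The day-1 rats had 0.34, -0.18, 0.17, 0.35, 0.57 and 0.33, most of them above the saline mean of 0. Single saline rats of both days ran from -0.24 to 0.55. The list median was -0.57 without 6F150.

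Markers of macrophages and granulocytes were lower in 19 of 19 measured genes, with a median of -0.37 (saline 0.07). Of these, 11 had an unadjusted p under 0.05, as did 3.7% of all genes in this direction, and none passed. Csf1r, the receptor that keeps macrophages alive, had lowest, median and highest signals of 157.7, 171.8 and 190 at day 1. At day 5 it was 151.9, 119.9, 104.7, 122.6 and 77.1, below each day-1 value (difference -0.57, SE 0.13, adjusted p = 0.146). Other members were Ctss, a protease of antigen-presenting cells, with means of 461 and 354 (-0.38), Lyz2, lysozyme, with 2278 and 1792 (-0.37), and C1qa, a complement chain made by macrophages, with 184.8 and 125.0 (-0.59). S100a9, the granulocyte marker of the list, was under the limit in mean at both days (13.3 and 9.33).

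Genes of antigen presentation were lower in 11 of 12 (median -0.24, saline 0.11) and none passed. Cd74, the chaperone of class II molecules, showed how the late rats divided: its lowest, median and highest day-1 signals were 1349, 1774 and 2261, and the day-5 females had 2132, 1689 and 1759 while the males 6M49 and 6M50 had 775 and 584.5. The females thus lay within the day-1 range and both males below it (difference -0.55, SE 0.17, adjusted p = 0.593). Lymphocyte markers were lower in 9 of 9 (median -0.22, saline 0.12), each with an unadjusted p of 0.0696 or more, and several were dim, such as Cd3d of the T cell receptor at means of 14.03 and 8.42.

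Genes of fibroblasts and the extracellular matrix were lower in 22 of 24, with a median of -0.35 (saline 0.07). None passed, and 9 had an unadjusted p under 0.05, against 3.7% of all genes in this direction. Col3a1, the collagen III chain, ran from 445 to 835 at day 1 with a median of 637, and the day-5 rats had 392, 484, 540.1, 266 and 251. The groups overlapped through 2 females, and the difference was -0.80 (SE 0.22, adjusted p = 0.379). Tagln, a marker of smooth muscle and myofibroblasts, had means of 227 and 124.2 with no overlap of the groups (-0.81, adjusted p = 0.409). Ccn1, a growth-factor-induced matrix protein, went the other way, from a mean of 30.3 to 63.1 (0.61, adjusted p = 0.999). Endothelial markers were lower in 15 of 16 with a smaller median of -0.13 (saline 0.12).

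These immune and matrix lists did not move equally in the 2 sexes. In males the medians were -0.60 for macrophages and granulocytes, -0.75 for the interferon response, -0.70 for antigen presentation and -0.66 for matrix. In females they were -0.16, -0.19, 0.03 and -0.09. The interferon scores of the day-1 males were 0.35, 0.57 and 0.33, and those of the day-5 males -0.15 and -0.25. Matrix scores were 0.53, 0.33 and 0.07 in the day-1 males and -0.18 and -0.43 in the day-5 males. In both of these lists the males thus lay above the saline mean of 0 at day 1 and below it at day 5. Without the males 6M49 and 6M50 the medians were -0.17 for macrophages and granulocytes (16 of 19 lower), -0.28 for the interferon response (16 of 18), -0.02 for antigen presentation (7 of 12) and -0.21 for matrix (17 of 24). No test was made of the difference in a list between the sexes, and only 2 males were measured at day 5.

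**Figure D3:**
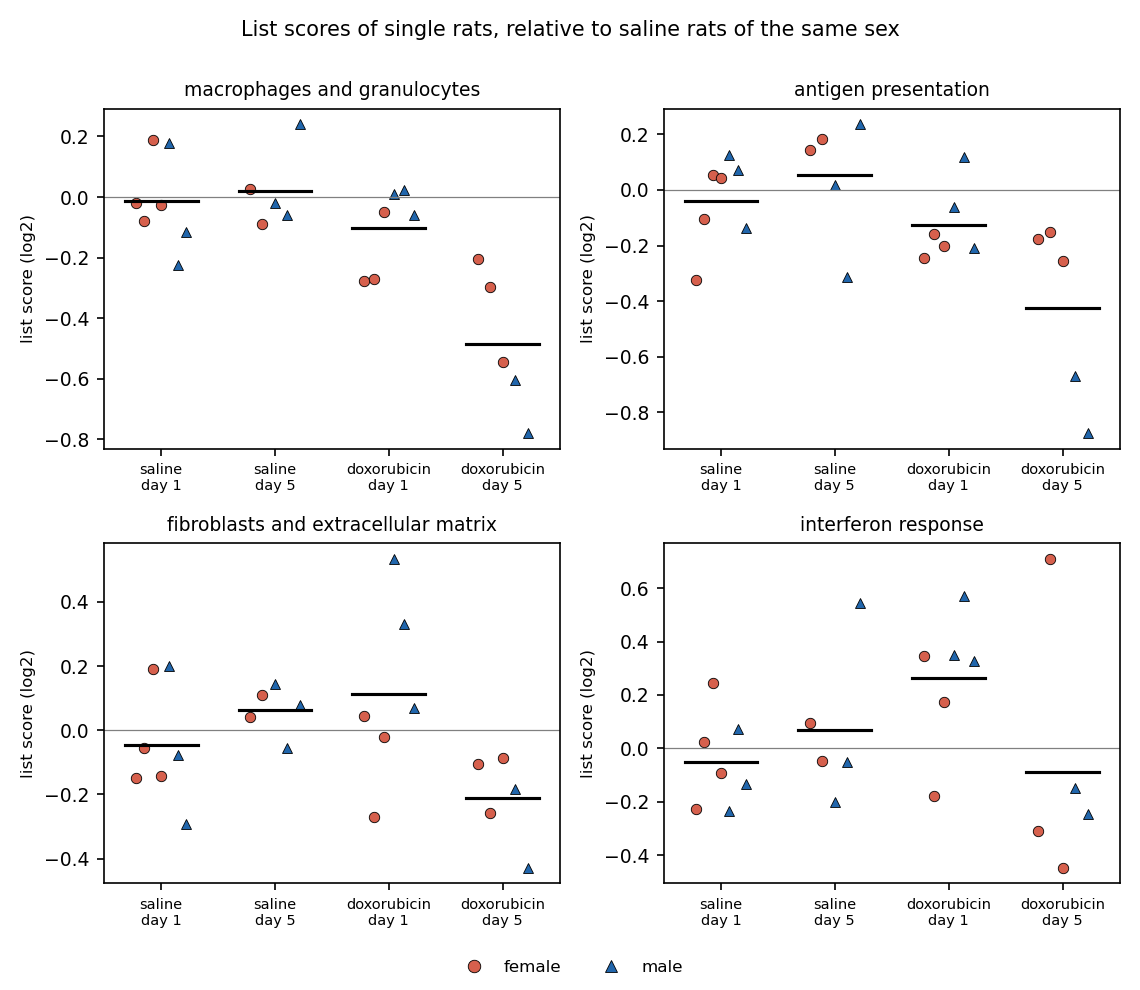
List scores (mean log2 value over the genes of a list, relative to saline rats of the same sex) of each rat for 4 lists, with group means as bars, females as circles and males as triangles. The males of doxorubicin day 5 have the lowest scores for macrophages and granulocytes (-0.60 and -0.78) and antigen presentation (-0.67 and -0.87), and 1 day-5 female lies highest of all rats for the interferon response at 0.71.

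Ccng1 encodes cyclin G1, a p53 target that acts with Mdm2 and a phosphatase (chromosome 10, 25678503 to 25684876). Its lowest, median and highest signals were 567, 728 and 810 at day 1. The day-5 females had 913, 985 and 952.5 and the males 1538 and 1319, so all 5 lay above day 1 and the males highest. The mean went from 713 ± 93.05 (SD, n = 6) to 1141 ± 274 (SD, n = 5), and Ccng1 rose by 0.67 on the log2 scale (SE 0.10, adjusted p = 0.00248), or 1.59-fold. Saline rats had 542 to 751 over both days. Without both males the difference was 0.47 and did not pass (adjusted p = 0.325), and in females alone it was 0.51 (adjusted p = 0.550). The level was not the highest of the series: 10 of the 84 other arrays reached at least the lowest day-5 value, and cisplatin at day 5 had a median of 1509.
The stretch before its start holds 1 match of the p53 half-site, a single decamer and not a full p53 site, 232 bases upstream. It is shown because Ccng1 was the p53 target that passed (GRCr8, chr10:25685017-25685126, - strand, motif in capitals).
Ccng1: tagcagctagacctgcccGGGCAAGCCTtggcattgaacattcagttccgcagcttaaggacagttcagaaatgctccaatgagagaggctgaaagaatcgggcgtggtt
Among p53 targets with a promoter in the table, 6 of 15 held such a decamer on either strand in the 250 bases before the start. Ccng1 is 1 of these 6, and the share over the promoters of tested genes was 5.6%.

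The other p53 targets moved less. Of 20 measured, 16 were higher at day 5 with a median of 0.11, where the saline median was -0.08, and Ccng1 was the 1 that passed. Cdkn1a, the p21 inhibitor of cell cycle kinases, had lowest, median and highest signals of 78.6, 114.5 and 140.9 at day 1. Its day-5 signals were 207, 99.3, 106.1, 240.5 and 190.1, which overlap day 1 in 2 females (difference 0.43, SE 0.21, adjusted p = 0.990). Mdm2, the ligase that degrades p53, had means of 391 ± 61.7 (SD, n = 6) and 435 ± 85.4 (SD, n = 5), a difference of 0.17. Aen, an exonuclease of apoptosis, had means of 146.8 and 196.6 (0.39), and Phlda3, an inhibitor of Akt, 105.2 and 143.0 (0.37). Ddit4l, an inhibitor of mTOR, was lower instead, with means of 182.3 and 122.4 (-0.53). The list median was 0.03 without 6M49 and 6M50.

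Tubular injury markers were high in 1 of the day-5 rats. Havcr1, the kidney injury molecule of proximal tubules, was under the limit in 3 of the 5 day-5 rats, with 12.7, 14.8 and 13.4 in the females, 35.3 in male 6M50 and 1158 in male 6M49. Its day-1 signals ran from 2.78 to 50.3. Lcn2, the iron-binding lipocalin shed by injured tubules, was 550.8 in 6M49 and 49.1 to 61.03 in the other 4, against 42.7 to 87.6 at day 1. Clu, a chaperone secreted after injury, was 3641 in 6M49 and 640.1 to 1094 in the others, against 555 to 1097 at day 1. None of the 3 passed (adjusted p = 0.999 each), and each difference turned below 0 without 6M49, to -0.13 for Havcr1, -0.14 for Lcn2 and -0.16 for Clu. In the same rat Cdkn1a, Mdm2 and Ccng1 were the highest of the late group.

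Across the injury list 16 of 22 genes were lower at day 5, with a median of -0.16 (saline -0.06). Slpi, a protease inhibitor of epithelia, differed most, with lowest, median and highest signals of 48.5, 83.2 and 109.3 at day 1 and 26.05, 20.6, 31.4, 23.4 and 22.6 at day 5. All late rats lay under the limit and below day 1, but Slpi did not pass (adjusted p = 0.263).

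**Figure D4:**
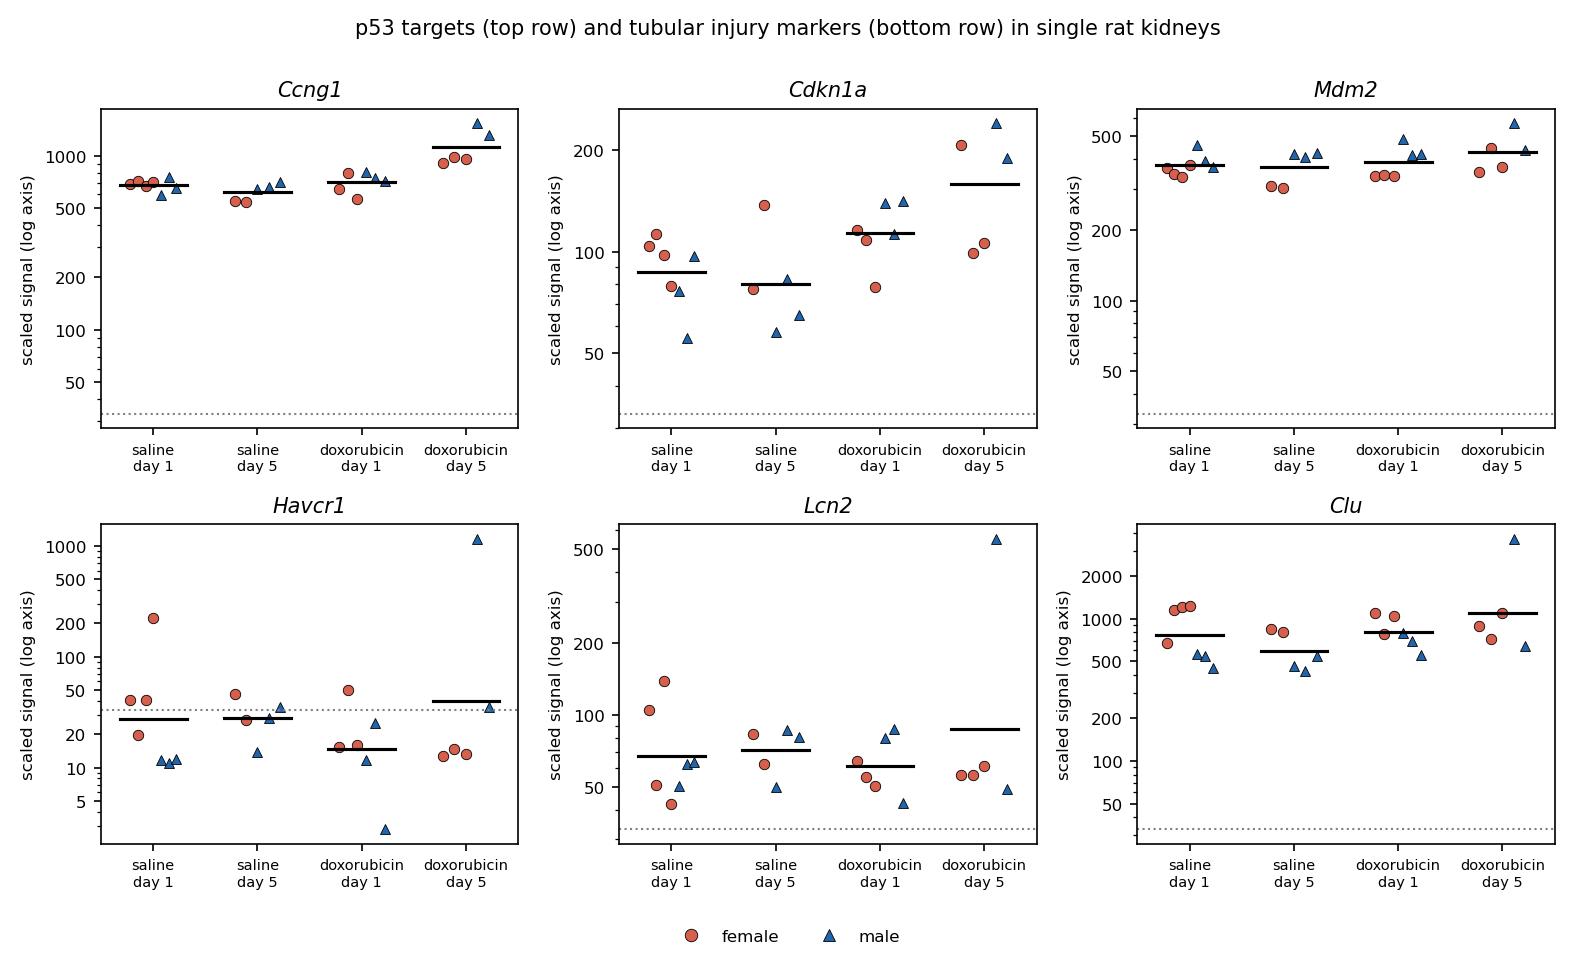
Scaled signal (log axis) of the p53 targets Ccng1, Cdkn1a and Mdm2 (top) and of the injury markers Havcr1, Lcn2 and Clu (bottom) in each of the 23 rats, with geometric means as bars and the limit of 33.1 as a dotted line. Ccng1 separates the 2 doxorubicin groups, while 1 male of day 5 is the highest rat in each lower panel, at 1158, 550.8 and 3641.

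Podocyte genes were slightly lower, 12 of 15 with a median of -0.13 (saline -0.05), and none passed. Nphs1, nephrin of the slit membrane, had lowest, median and highest signals of 204, 242 and 294 at day 1 and 169.6, 189.9, 191.4, 128.6 and 221 at day 5 (difference -0.44, SE 0.16, adjusted p = 0.770). In saline it differed by -0.18. A second, dimmer probe set of Nphs1 had mean differences of -0.08 in doxorubicin and -0.39 in saline. Ptpro, a phosphatase of the podocyte surface, had means of 305 and 217 (-0.48, adjusted p = 0.297), and Synpo, an actin-binding protein of their foot processes, 930.07 and 743 (-0.35). Unlike the immune lists, the median was about equal in males (-0.14) and females (-0.14).

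Genes of the cell cycle were lower in 26 of 31, with a median of -0.10 (saline -0.04), and 9 had an unadjusted p under 0.05 (3.7% of all genes in this direction), none of them passing. Mki67, the proliferation marker, had means of 40.7 and 23.9, and Cdk1, the mitotic kinase, 38.4 and 23.3, with both day-5 means under the limit. Top2a, the topoisomerase II of dividing cells and a target of the drug, had means of 45.7 ± 11.3 (SD, n = 6) and 30.4 ± 10.1 (SD, n = 5), with 3 of the 5 late rats under the limit (-0.39, adjusted p = 0.825). Top2b, the form found in resting cells, had 796 ± 93 (SD, n = 6) and 779 ± 44.8 (SD, n = 5), a difference of -0.04 that turned to 0.0010 when arrays were scaled to a common median.

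Of 4 measured large genes that span fragile sites, regions prone to breaks under replication stress, 3 were higher and none passed. Immp2l differed by -0.23, Wwox by 0.21 and Fhit by 0.05, and the last turned to -0.05 without 6F146 or 6F150. Hmox1 and Mt2A, which respond to oxidants and metals, differed by 0.38 and 0.24 and did not pass (adjusted p = 0.999 each). Of 18 genes that are targets of doxorubicin or handle it, 8 were lower and 10 higher with a median of 0.02, and Abcg2, an efflux pump, had the smallest p (difference 0.55, SE 0.20, adjusted p = 0.748).

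Clock genes were higher in 13 of 17, with a median of 0.27, and the saline rats went the same way with 0.15. Dbp, a clock output factor, had lowest, median and highest signals of 215, 581 and 658 at day 1 and 886, 647, 565, 718.5 and 922 at day 5, a difference of 0.62 where saline had 0.69. Saline rats had Dbp medians of 124.4 at day 1 and 228 at day 5, below those of doxorubicin at both days. Bmal1, the activator whose rhythm opposes that of Dbp, had means of 61.3 ± 35.9 (SD, n = 6) and 34.5 ± 14.1 (SD, n = 5), a difference of -0.56 where saline had -0.49. Its saline means were higher, at 129.2 and 88.03. The 2 treatments thus differed in level already at day 1, while their changes over days were alike in both genes. Tef, a relative of Dbp, and Bhlhe41, a clock repressor, had the smallest p-values of the list, with means of 334 and 452 (0.47, adjusted p = 0.194) and 134.9 and 223 (0.67, adjusted p = 0.292). The cold-inducible RNA-binding gene Rbm3 passed in neither group, with differences of 0.42 in doxorubicin (adjusted p = 0.0919) and 0.37 in saline (adjusted p = 0.702). The hour of sampling is not in the labels, and its part in these values was not tested.

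**Figure D5:**
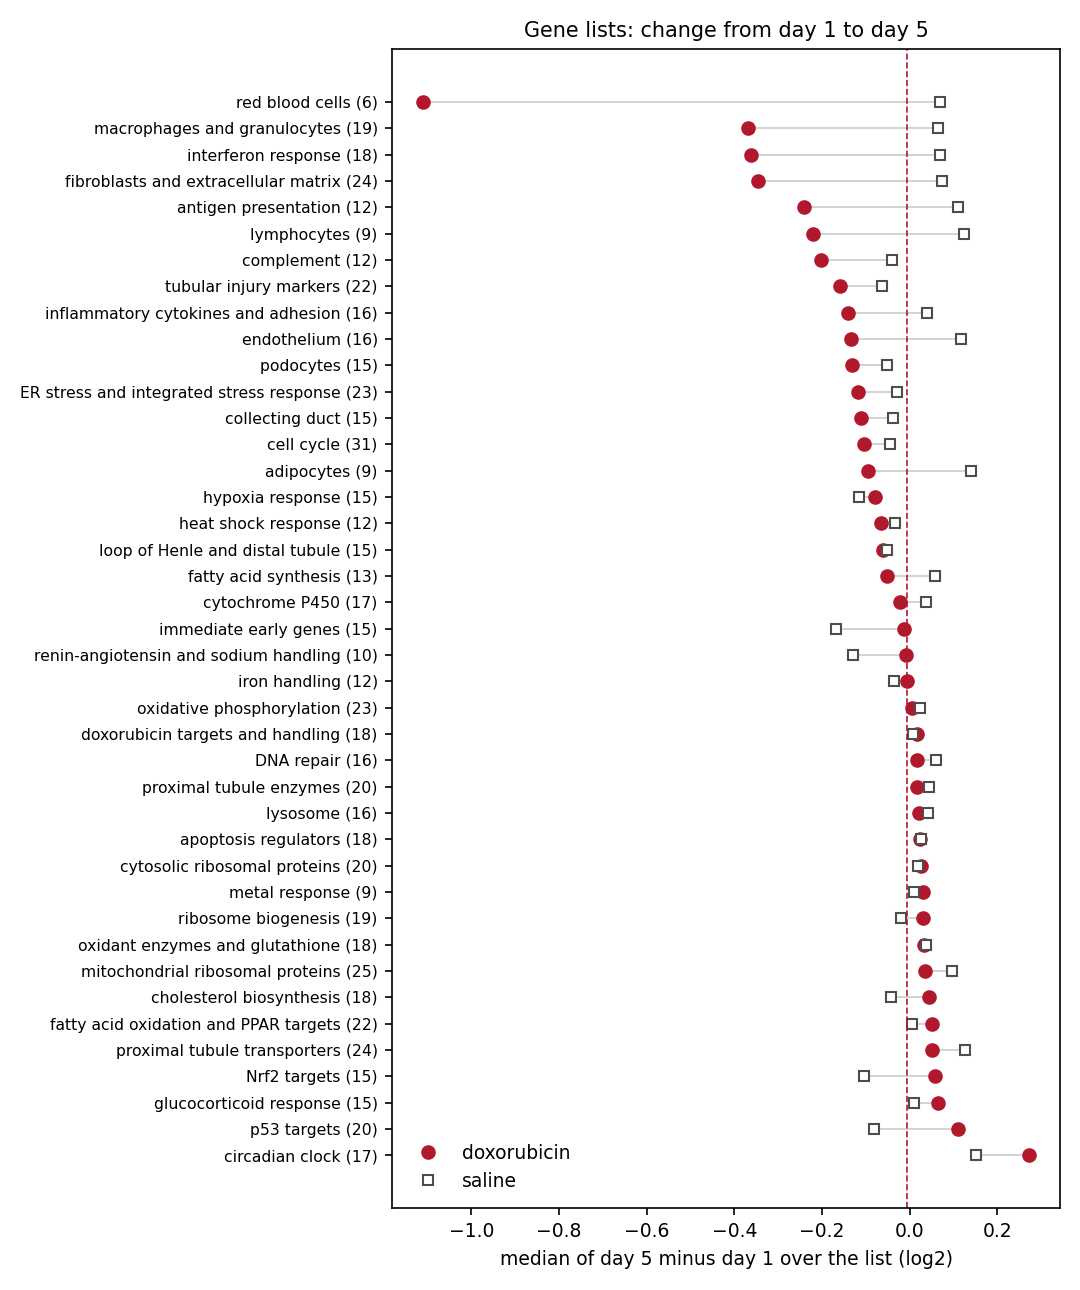
Median difference between day 5 and day 1 (log2, horizontal axis) of each gene list with at least 6 measured genes, in doxorubicin (filled circles) and saline (open squares), with the number of genes in brackets and the median over all genes in doxorubicin as a dashed line. Red cell genes lie farthest left at -1.11, then macrophages and granulocytes, interferon response and matrix at -0.37 to -0.35, and the circadian clock lies farthest right at 0.27.

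None of the tubule lists held a gene that passed, and their medians lay nearer 0 than those of the immune lists but differed in sign between the sexes. Proximal tubule transporters had a median of 0.05 over 24 genes (saline 0.13), with -0.08 in males and 0.24 in females, 0.25 without 6M49 and 6M50 and -0.01 without 6F150. Proximal tubule enzymes had 0.02 over 20, with -0.14 in males and 0.07 in females. Collecting duct genes were lower in 12 of 15 with a median of -0.11 (saline -0.04), with 0.04 in males and -0.23 in females, and without the 2 late males the median was -0.27 with 15 of 15 lower. Without 6F150 it was -0.04 with 9 of 15 lower. The day-5 females 6F149, 6F150 and 6F151 had collecting duct scores of -0.17, -0.25 and 0.21. Genes of the loop of Henle and distal tubule were lower in 9 of 15 with a median of -0.06 (saline -0.05), with 0.14 in males and -0.17 in females, where 15 of 15 were lower. Without 6F150 the median over both sexes was -0.0010 with 8 of 15 lower. The same 3 females had scores of -0.13, -0.28 and 0.02 for this list. Cytosolic ribosomal proteins, made in every cell, had 0.03 over 20, with -0.10 in males (16 of 20 lower) and 0.13 in females (0 of 20 lower). Oxidative phosphorylation had 0.0046 over 23, with -0.02 in males and 0.06 in females. These differences between the sexes were not tested. Lrp2, the megalin receptor of proximal tubules, had 5191 ± 253 (SD, n = 6) at day 1 and 5404 ± 420.02 (SD, n = 5) at day 5, with an interval of -0.11 to 0.21 (95%) for the difference. Aqp2, the water channel of the collecting duct, had 3415 ± 367 (SD, n = 6) and 3452 ± 409 (SD, n = 5), with an interval of -0.24 to 0.25.

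Atp6v1c1 (chromosome 7, 71719326 to 71757191) was the other gene that rose. Its lowest, median and highest signals were 674, 790 and 901 at day 1, and the day-5 rats had 1141, 909, 1099, 1014 and 1111. Saline rats had 817 to 934 at day 1 (median 893) and 721 to 957 at day 5 (median 814). The day-1 doxorubicin median thus lay below that of saline. Of the 84 other arrays, 29 reached at least the lowest day-5 value. Atp6v1c1 rose by 0.41 on the log2 scale from day 1 to day 5 of doxorubicin (SE 0.08, adjusted p = 0.0442). The list of 16 lysosomal genes had a median of 0.02, with 10 higher and none passing. Dcaf10, a substrate receptor of a ubiquitin ligase, was also higher in each day-5 rat than at day 1 but did not pass (means 67.5 and 98.2, difference 0.47, adjusted p = 0.296).

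In saline itself the smallest p-values belonged to Cyp26b1 (0.73) and Rbm3 (0.37) above 0, and to Kctd6 (-0.32) and E2f5 (-0.30) below 0, each with an adjusted p = 0.702. In doxorubicin the last pair differed by 0.01 and 0.07. Whether the change over days in doxorubicin differed from that in saline was tested by subtracting the saline difference. In this contrast 7 genes passed (0.0613%), 1 higher (0.00876%) and 6 lower (0.0525%). At an unadjusted p under 0.05 there were 678 (5.94%), 238 higher (2.08%) and 440 lower (3.85%). Of the 10 genes that passed in doxorubicin, 6 also passed here. The contrast was -5.37 for Hbb, -2.66 for Hba-a3, -1.06 for Bst2 and 0.84 for Ccng1. Alas2 (adjusted p = 1.54e-04) and Ighvl1 (adjusted p = 1.69e-04) were lower too, with no size given because their day-5 doxorubicin signals lay under the limit. The other 4 did not pass: Atp6v1c1 had 0.52 (adjusted p = 0.159) and Ccl6 -1.25 (adjusted p = 0.401), and Alox15 (adjusted p = 0.215) and Fgd2 (adjusted p = 0.447) were lower with day-5 signals under the limit. The gene that passed only in this contrast was Cyp26b1, an enzyme that breaks down retinoic acid. Its lowest, median and highest signals in doxorubicin were 138.1, 248 and 270.2 at day 1 and its day-5 signals were 141.3, 143.6, 159.8, 103.4 and 102.1, a difference of -0.75 (adjusted p = 0.0991). In saline it stood higher at day 5 instead, by 0.73 (means 146.3 ± 33.3, SD, n = 7, and 246 ± 49.5, SD, n = 5, adjusted p = 0.702). Neither difference passed alone, and the contrast between them was -1.47 (SE 0.23, adjusted p = 0.00325).

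The difference between days was also compared between males and females. Here 1 gene passed (0.00876%), Fam180a, whose function is little known, with 807 genes (7.07%) at an unadjusted p under 0.05, 310 above 0 (2.71%) and 497 below (4.35%). At day 1 the males had 196, 206 and 194 and the females 132.1, 162.1 and 126.1. At day 5 the males had 66.7 and 98.6 and the females 204, 198 and 253. The order of the sexes was thus opposite at the 2 days, with a difference of -1.14 in males and 0.58 in females (contrast -1.72, SE 0.24, adjusted p = 0.00747). The contrast rests on 2 day-5 males. Above 0, where none passed, the smallest p-values belonged to Ptger3, a prostaglandin receptor, with 0.97 in males and -0.32 in females, and to Ptges3, a co-chaperone of Hsp90, with 0.25 and -0.22.

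Cisplatin, which also damages DNA, was dosed over the same days in 6 rats each, and the change over days was compared between both drugs on all 89 arrays. In limma 3 genes passed (0.0263%), each lower in doxorubicin. They were Hbb (-4.95, adjusted p = 4.27e-29), Hba-a3 (-2.35, adjusted p = 0.0166) and Alas2 (adjusted p = 0.0142), the last with no size given since its day-5 doxorubicin signals lay under the limit. For Ccng1 the difference between the drugs was -0.16 (SE 0.17, adjusted p = 0.887).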

How the data were processed

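The authors deposited a linear signal intensity per probe set from 1-colour Affymetrix rat arrays, 31099 per array, made with MAS5 per the submitters' processing notes; the sources used here name no version or scaling. Each array was scaled to a common 2% trimmed mean of 181 and written as log2(signal + 16). Probe sets of controls (57), of several gene symbols (436) and of none (9780) were left out, and the brightest probe set stood for each of 14217 named genes. Genes above the 40th percentile (33.1) on 5 or more arrays were tested (11420). Limma 3.58.1 (R 4.3.3; robust eBayes with an intensity trend) fitted 23 arrays with sex as a term, with Benjamini-Hochberg adjustment. The code of the fit was also run on simulated data with independent normal noise and known shifts. Such data hold no outlying rats or measurement limit, so no conclusion is drawn from that run. Intensities carry no counts, so the number of arrays sets the precision, and nothing in the labels says more of the replicates than that they are separate rats.

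Groups came from the titles. For 3 saline arrays (1F104, 1M2, 1M4) the label on treatment is missing or unlike the title. Named genes were, on each side of the doxorubicin contrast, up to 12 that passed or else the 6 with the smallest p, with a fixed panel and up to 4 genes a side (2 where none passed) from the other contrasts; other list examples were picked with their values in view. The comparison, the 43 gene lists and the panel were chosen with earlier results of these data known. Where all day-5 rats lay under 33.1, a fold is the geometric mean of day 1 over that limit. Promoters and positions are those of RefSeq on GRCr8. Alternatives covered the pseudocount, scaling, filter, probe sets, arrays fitted, covariates and each rat left out, and further ones (each sex alone, the day-5 males left out, cisplatin) were chosen after seeing the data. Figures used matplotlib 3.10.9.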

Additional observations from a re-analysis of the deposited data

Results flagged for a closer look

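By the test of the difference itself, 7 genes changed differently over the days in doxorubicin than in saline rats. The values (log2) were -5.3683 for Hbb, -2.66141 for Hba-a3, -2.08599 for Alas2, -1.47085 for Cyp26b1, -1.26994 for Ighvl1, -1.06207 for Bst2 and 0.843802 for Ccng1. The sizes for Alas2 and Ighvl1 rest on day-5 doxorubicin signals under the limit of measurement, so they hold for direction only. Fam180a changed differently in males than in females, by -1.72495.

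Single rats stood far from the others of their group in 14 of 230 groups of values checked. Chance gives about 1 in 20 for independent values with a normal spread, and the count was near that rate. Gene signals were checked without logs and the same rats recur, so the rate is only a rough guide. In doxorubicin at day 5, male 6M49 had a Havcr1 signal of 1158 (others up to 35.3), an Lcn2 signal of 550.8 (others up to 61.03), a Clu signal of 3641 (others up to 1094) and an injury list score of 0.9877 (others -0.36 to -0.23). Female 6F150 had an interferon list score of 0.7099 (others -0.45 to -0.15). In doxorubicin at day 1, female 6F148 had a Bmal1 signal of 131.2 (others up to 62.6), the level of the saline rats of that day, and female 6F146 a cytochrome P450 list score of -0.2206.

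In saline at day 1, rat 1F104, 1 of the 3 with a treatment label missing or unlike the title, had a Havcr1 signal of 225.5 (others up to 40.6). Rat 1M1 had a Hmox1 signal of 2595 (others up to 58.6) and rat 1F102 a Bmal1 signal of 156.8. In saline at day 5, rat 1F106 had a GAPDH ratio of 1.579, an Rbm3 signal of 1534 and an Alox15 signal of 69.59, and rat 1M4 a Hba-a3 signal of 751.5.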

How the results depend on the processing

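The count of 10 genes was 6 with a pseudocount of 64, 19 with array quality weights, 4 in females alone and 4 without 6M49 and 6M50. With 1 rat left out it ran from 5 (without 6M50; 6 without 6M49) to 14 (without the saline rat 1F106). Under 13 planned settings with all rats of the titles or fewer saline rats, Hbb, Hba-a3, Alas2, Ighvl1 and Ccng1 passed in 13, Bst2 in 12, Ccl6 in 8 and Atp6v1c1 in 5, and under the 12 that measured them Alox15 passed in 10 and Fgd2 in 6. In females alone and without both males the 4 genes that passed were among the 10. The saline count was 0 in limma under each setting run (742 genes at an unadjusted p under 0.05 with the settings of the report). The count of 7 against saline was 13 over all probe sets, 1 in females alone, 4 without 6M49 and 6M50, and 6 to 9 with 1 rat left out. The count of 1 between the sexes was 6 on the doxorubicin arrays alone, 3 with array weights, 3 without the 3 saline arrays of differing text, and 1 to 8 with 1 rat left out (8 without 6M50). The causes were not tested.

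Hbb fell by 4.78 on the log2 scale with a pseudocount of 64, which moves its fold by over 1.5 times. Some genes that did not pass changed sign. With 1 rat left out, Clu ran from -0.16 (without 6M49) to 0.60, Havcr1 from -0.13 (without 6M49) to 1.36, Lcn2 from -0.14 (without 6M49) to 0.75 and Fhit from -0.047 (without 6F150; -0.046 without 6F146) to 0.18. Clu was -0.12 in females alone and -0.24 without both males. Havcr1 was -0.45 and -0.59 in the same settings, and Lcn2 was -0.10 without both males. In males alone Fhit was -0.38, Hmox1 -0.021, Mt2A -0.26 and Top2b 0.091, and Top2b was 0.0010 with median scaling. No paired analysis was possible because the animal codes tie no rat of 1 group to a rat of another.

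Dim genes limit what can be said: Alas2, Ighvl1, Alox15 and Fgd2 have only a lower bound for their fall. With 5 and 6 rats, small changes cannot be told from none.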

Other observations

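Transcripts of liver proteins varied widely between single arrays; the genes named here were chosen after their values were seen. Alb, serum albumin, had signals of 645, 3387, 3579, 566, 14.5 and 32.6 in the doxorubicin rats of day 1 and 660.5, 32.4, 6.14, 13.8 and 7.998 in those of day 5. In saline it ran from 8.71 to 1482 at day 1 and from 7.79 to 1855 at day 5, so high and low rats were found in each group. The difference between days did not pass in doxorubicin (adjusted p = 0.999), and 4 of the 5 day-5 signals lay under the limit of 33.1, so no size is given. Hpx, hemopexin, the heme-binding plasma protein, was 57.1, 248, 352, 73.6, 18.5 and 35.8 at day 1 and 84.6, 4.78, 10.4, 18.2 and 3.22 at day 5, high in the same rats as Alb.

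Klk1c4, a kallikrein, was lowest in the day-5 males at 124.8 and 266.1, where the females had 837, 1111 and 1011 and the day-1 rats 506.5 to 1557. Its difference of -1.22 (SE 0.33) did not pass (adjusted p = 0.409), and saline had 0.74.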
